A study of Mus musculus with 2 samples.

Results

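Neural cell adhesion genes were examined for binding of the co-activator p300 in the dorsal cerebral wall of the mouse embryo. The set was a fixed list of 33 genes among the 22367 protein-coding genes of the GENCODE vM1 annotation, and all 33 were found there. Each gene was given a window made of its body and 250 kb to each side of its transcription start site, taken from the transcript with the longest coding sequence. A p300 peak belonged to the gene when its midpoint fell in that window. Of the 6629 peaks, 85 lay in the windows of 26 of the genes, and the other 7 genes had none.

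Cell adhesion molecules sort, hold and connect the cells of the developing brain. Classical cadherins bind like to like across the gap between cells when calcium is present, and their cytoplasmic tails reach the actin skeleton through catenins. Delta-protocadherins are single-gene relatives with weaker adhesion, many of them expressed in restricted sets of neurons. Neurexins on the presynaptic side bind neuroligins and leucine-rich LRRTM proteins on the postsynaptic side. Contactins and the NCAM proteins carry immunoglobulin domains and act in axon growth and bundling. The acetyltransferase p300 is brought to DNA by transcription factors, and its binding away from promoters is widely used to mark active enhancers.

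One sample of dorsal cerebral wall from E14.5 Swiss Webster embryos, freed of the medial cortex and choroid plexus, gave 1 p300 ChIP-seq library and 1 input library. No genotype or treatment differed and there was no replicate, so no test between samples was possible and each p compares peak counts with window length. The deposited list holds peak positions only, without a score or read count, so weaker binding and the precision of a single peak are unknown. Binding was measured, not transcription. The windows of 8 dorsal telencephalic marker genes held between 2 and 11 peaks each, with a median of 4.63 times the expected number, whereas those of 7 ventral marker genes held between 0 and 3, with a median of 0.772 times.

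The middle 200 bases of the widest peak are shown for 1 gene of each family, the gene with the highest ratio of peaks to expected peaks, to let the bound DNA be read beside its position. Coordinates are on mm9, the plus strand is printed 5′ to 3′, and capitals mark matches on either strand to 6 short motifs. These are the E-boxes CAGCTG and CATCTG, the homeodomain core TAATTA, the Nfi motif TTGGCA, the Sox core ACAAAG and the octamer-like ATGCAAA.
Cdh4, chr2:179521596-179521795: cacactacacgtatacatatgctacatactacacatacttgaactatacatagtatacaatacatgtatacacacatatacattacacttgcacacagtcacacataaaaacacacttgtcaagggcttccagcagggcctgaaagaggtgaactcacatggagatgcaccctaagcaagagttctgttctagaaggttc
Cdh6, chr15:13206327-13206526: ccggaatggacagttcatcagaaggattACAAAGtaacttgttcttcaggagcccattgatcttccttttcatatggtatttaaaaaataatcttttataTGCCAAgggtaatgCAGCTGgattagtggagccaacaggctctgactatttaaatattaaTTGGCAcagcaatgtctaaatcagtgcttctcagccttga
Cdh13, chr8:121041124-121041323: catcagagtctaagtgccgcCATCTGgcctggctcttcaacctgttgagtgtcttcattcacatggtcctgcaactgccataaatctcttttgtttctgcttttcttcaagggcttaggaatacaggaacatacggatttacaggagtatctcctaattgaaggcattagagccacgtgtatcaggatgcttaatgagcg
Pcdh9, chr14:93466695-93466894: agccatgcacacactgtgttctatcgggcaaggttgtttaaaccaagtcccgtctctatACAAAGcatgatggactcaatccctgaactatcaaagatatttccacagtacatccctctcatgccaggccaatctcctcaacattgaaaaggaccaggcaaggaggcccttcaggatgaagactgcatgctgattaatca
Lrrtm1, chr6:77000487-77000686: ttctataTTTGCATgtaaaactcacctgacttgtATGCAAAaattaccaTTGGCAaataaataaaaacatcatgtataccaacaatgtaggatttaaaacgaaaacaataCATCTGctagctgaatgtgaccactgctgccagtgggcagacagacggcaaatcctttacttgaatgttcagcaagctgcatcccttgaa
Cntn5, chr9:10667565-10667764: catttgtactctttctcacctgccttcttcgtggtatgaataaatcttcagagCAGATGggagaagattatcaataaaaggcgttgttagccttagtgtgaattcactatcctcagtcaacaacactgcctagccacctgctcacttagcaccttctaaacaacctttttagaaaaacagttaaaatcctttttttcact
Ncam1, chr9:49566279-49566478: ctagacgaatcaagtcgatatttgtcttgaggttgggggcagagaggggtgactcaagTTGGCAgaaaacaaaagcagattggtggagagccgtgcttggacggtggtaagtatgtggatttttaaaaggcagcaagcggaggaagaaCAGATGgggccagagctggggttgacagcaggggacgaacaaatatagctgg
The Cdh4 stretch, in intron 3 of that gene, held none of the 6 motifs. The Cdh6 stretch, 103.0 kb upstream of the gene, held 4 matches. Another 4 were found in the Lrrtm1 stretch, among them the octamer-like ATGCAAA on each strand. The remaining stretches held 1 or 2 matches each.

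The adhesion genes held 1.29 times as many p300 peaks as their length predicts, an excess that depended on the setting, and the peaks were unevenly shared. If peaks fell evenly over the 2.56 Gb of assembled sequence, at 2.59 per Mb, 66.1 would be expected in the 25.5 Mb of these windows. The 85 observed gave a 95% counting interval for that ratio from 1.03 to 1.59, which treats peaks as independent. The interval included 1 under 6 of 11 alternatives. Among them, expected numbers outside exons and start sites, where the authors had removed peaks, gave 1.22 (0.973 to 1.502), and a reach of 500 kb gave 1.05 (0.859 to 1.27). No window overlapped another and no peak was counted for more than 1 member. The share of all peaks was 1.28% (exact Clopper-Pearson 95% interval 1.03 to 1.58%), against 0.997% of the assembled sequence. The 10 genes with 4 or more peaks held 56 of the 85, or 65.9%, and 11 genes had 1 or 2. By gene, 16 were above the expected number and 17 below it, and the median gene had 2 peaks, or 0.863 times the expected number.

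No single adhesion gene passed the test for more peaks than its window length predicts. A one-sided exact binomial test with an adjusted p under 0.05 (Benjamini-Hochberg, over all 22367 genes) called 0 of the 33, while it called 2.08% of all genes. Without adjustment 6 of the 33 were under 0.05, namely Cdh4, Cdh6, Cdh7, Cdh22, Pcdh9 and Lrrtm1, where 8.33% of all genes were. In the other direction the same test called 0 of the 33 and 0% of all genes. Without adjustment 0 of the 33 were under 0.05, where 0.0134% of all genes were. A window of 500 kb predicts 1.30 peaks and needed 7 to be called higher, and an empty one gave an unadjusted p of 0.274. Absence of a call is therefore weak information for a gene with a short window. For fewer peaks the smallest adjusted p of any gene was 0.571 (exact binomial test), so the lack of such calls does not set the members apart.

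**Figure D1:**
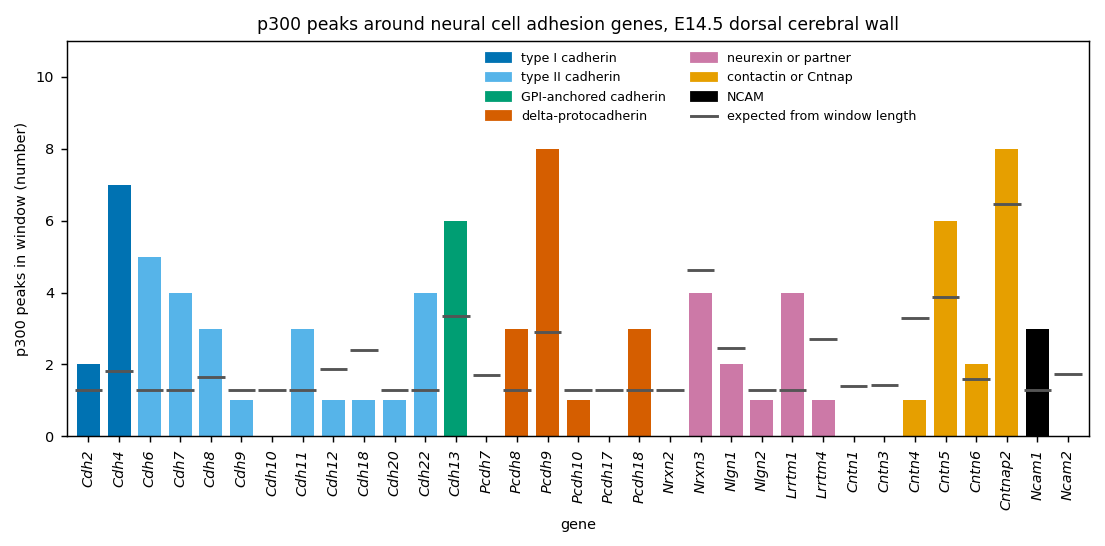
Number of p300 peaks in the window of each of the 33 adhesion genes (bars, coloured by family), with the number expected from the length of assembled sequence in the window (short grey lines). Pcdh9 and Cntnap2 have the tallest bars with 8 peaks each, but the line for Cntnap2 stands at 6.45 and that for Pcdh9 at 2.91. The 7 genes without a bar have no peak.

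The type I classical cadherins had more peaks than their length predicts, most of them in Cdh4. Cdh2 and Cdh4 together held 9 peaks where 3.13 were expected, a ratio of 2.88 (counting interval 1.32 to 5.46), which was 2.18 (0.996 to 4.13) with expected numbers set by local GC content and 1.91 (0.395 to 5.59) with wide peaks alone. Cdh4 encodes R-cadherin and covers 179177136 to 179634078 on chromosome 2. Its 7 peaks, where 1.83 were expected, gave the smallest adjusted p of any member (0.0893, exact binomial test). All 7 lay within the gene, in introns 2 and 3, in a pair of separate groups. The nearer 3 peaks stood 68.3, 76.7 and 79.2 kb from the start site. The farther 4 stood between 320.5 and 344.6 kb and were closer to the start of the gene model Gm10711 than to that of Cdh4. A stretch of 100 kb predicts 0.259 peaks, but this one was picked for holding the most, so the 2 numbers give no test. Of the 7 peaks, 2 reached the median width of all peaks. The Cdh4 window has 48.6% GC, and with expected numbers set by GC content its ratio was 2.15 in place of 3.82. Cdh2 encodes N-cadherin, which holds the adherens junctions of radial glia. Its 2 peaks, where 1.30 were expected, lay in intron 2, at 74.3 and 139.0 kb from the start, and the farther one touches an exon of the annotation used here.

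The 10 type II classical cadherins ranged from 0 to 5 peaks and divided evenly around expectation. Together they held 23 peaks where 15.0 were expected, a ratio of 1.53 (0.971 to 2.30), with 5 genes above the expected number and 5 below. The ratio was 2.11 (1.33 to 3.16) by GC content and 1.00 (0.656 to 1.47) with a reach of 500 kb. It was 0.942 (0.379 to 1.94) for gene bodies alone and 0.930 (0.374 to 1.92) with wide peaks alone. Under the other settings it lay between 1.22 and 1.56. Cdh6, first described in kidney and also expressed in regions of the embryonic brain, had 5 peaks where 1.30 were expected (adjusted p = 0.209, exact binomial test). It lies at 12963955 to 13103394 on chromosome 15. Of its peaks, 3 were packed into 8.89 kb at 103.0, 110.8 and 111.9 kb upstream of the start, another lay 219.7 kb upstream, and 1 lay in intron 1. All 4 peaks of Cdh7 were upstream, at 10.3, 49.98, 81.0 and 83.9 kb, with none in the gene and no other coding start in its window (adjusted p = 0.515, exact binomial test). Its ratio was 3.09 by length and 5.19 by GC content. Cdh22 also had 4, at 41.1 kb upstream and 98.5, 138.3 and 165.9 kb downstream of its start. Each of those 4 was nearer the start of another coding gene, 9 of which begin in the Cdh22 window, and its ratio of 3.09 by length was 1.73 by GC content.

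The remaining type II genes had 3 peaks or fewer. Cdh11 had 3, of which 2 were in intron 1 at 4.03 and 59.3 kb from the start, the first being the closest peak to any start in the set. Cdh8 had 3, with 1 in intron 2 and 2 upstream within the neighbouring coding gene A330008L17Rik. Cdh9, Cdh12, Cdh18 and Cdh20 had 1 peak each. Cdh12 and Cdh18 have long windows that predict 1.89 and 2.40 peaks. Cdh10 had none.

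Cdh13, which encodes T-cadherin, differs from the classical cadherins in being tied to the membrane by a lipid anchor without a cytoplasmic tail. Its 6 peaks, where 3.35 were expected, were spread thinly over 1.29 Mb of chromosome 8. They stood 121.4 and 12.6 kb upstream and, inside the gene, 132.2, 233.6, 712.1 and 875.1 kb from the start. The last 2 lie closer to the start of Hsbp1 than to that of Cdh13. The ratio of 1.79 by length was 1.14 by GC content.

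Among the delta-protocadherins, Pcdh9 had the most peaks, 8, whereas Pcdh7 and Pcdh17 had none. The 6 genes held 15 peaks where 9.80 were expected, a ratio of 1.53 (0.856 to 2.52), or 2.27 (1.27 to 3.75) by GC content. That ratio was 2.44 (1.26 to 4.26) with wide peaks alone and 1.21 (0.740 to 1.87) with a reach of 500 kb. Pcdh9 covers 93414731 to 94287951 on chromosome 14, in a window with 35.9% GC and no other coding start. A count of 8 compares with 2.91 expected from length (adjusted p = 0.209, exact binomial test). When expected numbers were set by local GC content, 1.73 were expected and Pcdh9 passed the test, with a ratio of 4.62. Its adjusted p was then 0.0443 (exact binomial test), close to the limit of 0.05. The same setting called 1.05% of all genes, and Pcdh9 was the only member among them. No other setting gave a call for any member. It was the gene with the widest peak of the set, 2362 bp across, at 821.2 kb from the start in intron 3, whose centre is printed above. A further 4 peaks lay in intron 2 between 425.1 and 507.3 kb, and 1 each lay in introns 1 and 3 at 303.0 and 705.9 kb. The eighth was 78.5 kb upstream. In all, 7 of the 8 reached the median width of the whole list.

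The short protocadherin genes showed other arrangements. Pcdh8, a gene of 4.53 kb whose product acts in cell sorting and at synapses, had 3 peaks within 28.6 kb, between 80.2 and 108.8 kb upstream. The start of the gene model Gm10845 was closer to each of the 3. Pcdh18 had 3 peaks with none in the gene, at 129.5 and 12.1 kb upstream and 114.7 kb downstream. Pcdh10, which acts in the growth of forebrain axons, had 1 peak, 7.23 kb from its start.

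Genes of the neurexin synaptic pairing had about as many peaks as their length predicts. Neurexins 2 and 3, neuroligins 1 and 2, and Lrrtm1 and Lrrtm4 together held 12 where 13.7 were expected, a ratio of 0.877 (0.453 to 1.53). Nrxn3, the presynaptic receptor gene of 1612 kb, had 4 peaks where 4.64 were expected. A pair lay 6.19 and 65.0 kb from its start and another pair at 1318 and 1337 kb in intron 18, with 1253 kb between the pairs. The farther pair lies nearer the start of Dio2. Nrxn2 had none. Nlgn1, whose product acts at excitatory synapses, had 2, at 11.9 kb upstream and 454.2 kb into the gene. Nlgn2, whose product acts at inhibitory synapses, lies among 40 other coding starts, and its only peak, 230.6 kb upstream, was nearer Asgr1. Lrrtm1 was the only gene of the 6 above its expected number, with 4 peaks where 1.30 were expected (adjusted p = 0.515, exact binomial test). Those peaks, at 192.1 kb upstream and 115.8, 171.1 and 183.2 kb downstream, all lay inside Ctnna2, the alphaN-catenin gene within which Lrrtm1 sits. Whether they act on Ctnna2, on Lrrtm1 or on neither was not measured. Lrrtm4 had 1 peak in intron 2.

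In the contactin group most genes had few peaks, and Cntnap2 and Cntn5 held 14 of the 17. By length 18.1 were expected, a ratio of 0.941 (0.548 to 1.51), and by GC content 11.4, a ratio of 1.49 (0.869 to 2.39). Cntnap2, which encodes the axonal protein Caspr2 and spans 2241 kb of chromosome 6, had 8 peaks where 6.45 were expected by length, a ratio of 1.24, or 1.96 by GC content. Of these, 1 was upstream, 1 was in intron 1, 2 were in intron 11 and 4 were in introns 18 to 22, between 1991 and 2232 kb from the start. The last 4 lie nearer the start of Cul1, and the pair in intron 11 nearer Rbpsuh-rs3. Cntn5 had 6 peaks, all inside the gene, where 3.87 were expected by length, a ratio of 1.55, or 2.55 by GC content. They stood 223.1, 237.1, 375.5, 678.6, 783.1 and 831.7 kb from its start, the last being nearer the start of the gene model Gm16833. Cntn6 had 2, both upstream, at 71.9 and 179.7 kb. Cntn4 had 1 where 3.29 were expected, deep in the gene at 902.6 kb and nearer the start of Il5ra. Cntn1 and Cntn3 had none.

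The NCAM genes were split, with 3 peaks for Ncam1 and none for Ncam2. Ncam1 encodes the homophilic molecule that carries polysialic acid in the embryonic brain. Its peaks stood 188.3 and 24.3 kb upstream and 80.7 kb downstream of the start site used, which lies inside the annotated gene. Both upstream peaks were inside that gene, and the downstream one was outside it, 2.96 kb from the start of Ttc12. From the outermost start of the gene, the window held 6 peaks where 1.42 were expected, a ratio of 4.24 in place of 2.32, with an adjusted p of 0.107 (exact binomial test). Ncam2 had no peak where 1.75 were expected, and the closest was 928.0 kb from its start.

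**Figure D2:**
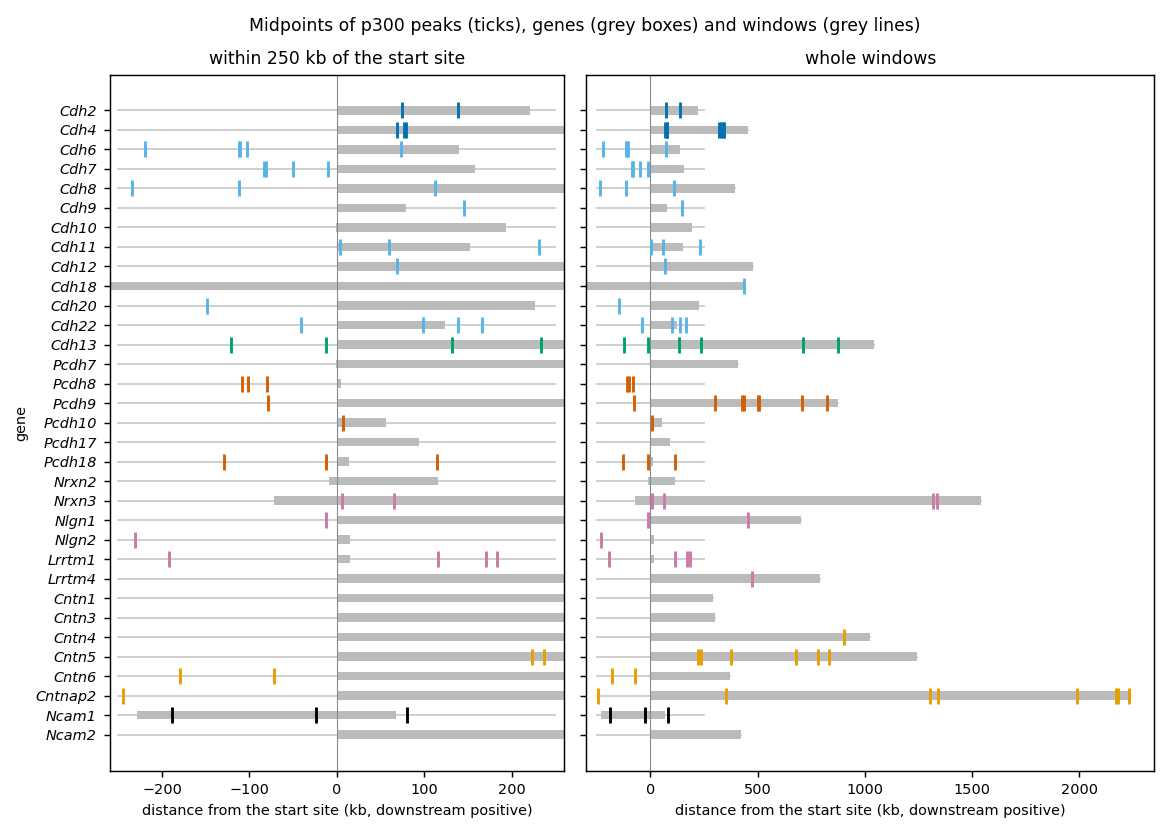
Position of each peak midpoint (coloured ticks) relative to the start site of its gene in kb, with the gene drawn as a grey box and the window as a thin line, within 250 kb of the start (left) and over the whole window (right). Cdh4 and Pcdh9 show groups of ticks deep in the gene, Cdh7 and Pcdh8 have ticks on the upstream side only, and 30 peaks in 10 genes lie more than 250 kb from the start.

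Genes without a peak differed in how far the nearest one was. The closest peak stood 306.9 kb from the start of Pcdh17, 463.5 kb from Cntn1, 526.4 kb from Cntn3, 608.8 kb from Cdh10 and 609.8 kb from Nrxn2. For Pcdh7 it stood 1022 kb away, and no peak lay within 1 Mb of that start, where 5.18 were expected. Surroundings differed as well. Within 1 Mb of the Cntn1 start there were 11 peaks and within 1 Mb of the Nrxn2 start 10, whereas Cdh10 and Cntn3 had 2 each.

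Members with short windows together had more peaks than other protein-coding genes of like span, and members with longer windows together did not, which is given as a description. For each gene the other coding genes whose window held assembled sequence within 10% of its own were taken. The 16 members with a window of 500 kb averaged 2.19 peaks, and 3 of the 16 had none. The 21703 other genes with that much assembled sequence or less averaged 1.09, and 52.0% had none. The 21530 of like span averaged 1.10. The 35 peaks of these members compare with a summed like-span mean of 17.6. The 17 members with longer windows held 50 peaks against a summed mean of 52.9, a ratio of 0.945. These differed by gene. Nrxn3 had 4 peaks, where the highest count among its 7 like-span genes was 3. Cntn4 had 1, and 29 of its 32 like-span genes had as many or more. For Pcdh9, 7 of its 33 like-span genes had 8 peaks or more. For Cdh4, 18 of its 160 like-span genes had 7 peaks or more. Over all 33 members the ratio was 1.21. The median of the like-span genes was above 0 for 15 members, of which 8 lay above that median and 7 below it. Those below were Cdh12, Cdh18, Nlgn1, Lrrtm4, Cntn4, Pcdh7 and Ncam2. For the other 18 the median was 0, so that no count could fall below it, and 13 had a peak. The surroundings of the members also differed from those of other genes. The median member window held 0 other coding starts and 37.9% GC, against 8 starts and 44.2% for all genes. Taking like-span genes with a similar number of coding starts, a choice made after that difference was seen, gave a ratio of 1.15 over all members. Of these, 18 then lay above the median of such genes and 11 below it. For members with a 500-kb window and 0 other coding starts, the 2693 such genes averaged 1.46 peaks in place of 1.10, so the excess of those members was smaller. The part of gene density and GC content in the counts was not tested further.

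**Figure D3:**
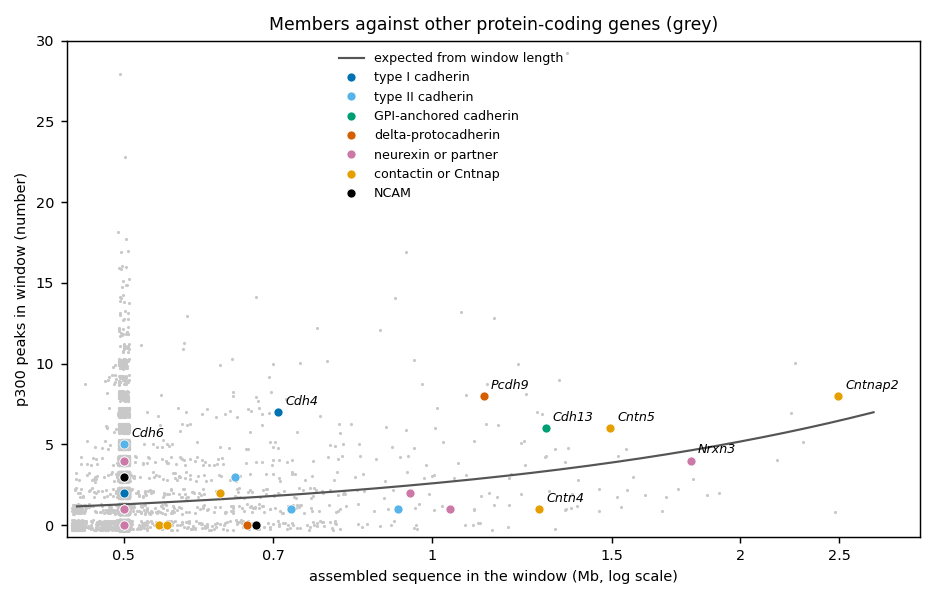
Number of p300 peaks against assembled sequence in the window in Mb (log scale) for the adhesion genes (coloured by family) and for other protein-coding genes (grey points, shifted slightly at random so that they can be told apart), with the number expected from length as a line. Members with a 500-kb window and equal counts overlie each other, and genes with under 0.45 Mb or over 3 Mb of sequence are not drawn. The vertical axis also ends below the highest count of any gene, which is 50, so genes above its end are not shown. Cdh4 and Pcdh9 stand above the line, Cntn4 and Nrxn3 below it, and many grey genes stand higher than any member, none of which reaches 10 peaks.

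More of the adhesion gene peaks lay inside a member than outside, though not more densely. Of the 85, 50 were in the body of a member and 35 outside, which is 3.23 per Mb (2.40 to 4.26) and 3.50 per Mb (2.43 to 4.86). For the 18 members with a gene of at least 250 kb the densities were 3.10 inside (2.24 to 4.17) and 2.42 outside (1.16 to 4.45), and for 680 other such genes they were 3.94 and 2.34. There were 28 upstream of the start and 57 downstream. Windows of long genes reach much farther downstream than upstream, so these counts cover unequal lengths and show no preference for a side. For 58 peaks, or 68.2%, the member's start was the nearest coding start, and for the other 27, in 11 genes, another start was nearer. Introns of 17 members held 48 peaks. Of these, 33 were in the first 3 introns, or 68.8% (exact 95% interval 53.7 to 81.3%), which make up 56.2% of the intron length of those genes. Cntnap2, with 38.5% of its intron length there, had 1 of its 7 intronic peaks there. Cdh4, with 78.7% there, had all 7. Pcdh9 has 3 introns and Lrrtm4 has 2, so their 7 and 1 intronic peaks could lie nowhere else.

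By distance, the members had more peaks per Mb than other genes close to the start and between 50 and 150 kb from it. Within 25 kb there were 8 peaks, in 8 different genes, or 4.85 per Mb (counting interval 2.09 to 9.55) against 1.56 for other genes. From 25 to 50 kb there were 2, or 1.21 per Mb (0.147 to 4.38) against 1.93. Density was 4.55 per Mb (2.54 to 7.50) against 2.15 at 50 to 100 kb, and 4.85 (2.77 to 7.87) against 2.31 at 100 to 150 kb. From 150 to 200 kb it was 1.82 (0.667 to 3.96) against 2.42, and from 200 to 250 kb 2.42 (1.05 to 4.78) against 2.48. The values of other genes count a peak once for each gene nearby, and the authors had removed peaks within 2.5 kb of a start. Those other genes were not matched to the members for coding starts nearby or GC content, and the part of either in these densities was not tested.

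The member peaks had lower GC content than the rest of the list and a similar median width. Median width was 984 bp for member peaks, which ranged from 589 to 2362 bp, and 1017 bp for all peaks. The next peak was under 50 kb away for 37 of the 85, or 43.5%, against 50.1% of all peaks. GC content of the middle 500 bases had a median of 42.0% in member peaks and 46.2% in the other 6544. Both E-boxes searched there are of the Neurod and Neurog type. The E-box CAGCTG was in 30.6% of member peaks (exact 95% interval 21.0 to 41.5%) and 39.8% of the others. The other E-box, CATCTG, read as CAGATG on the opposite strand, was in 62.4% (51.2 to 72.6%) and 57.3%. The AT-only homeodomain core TAATTA was in 38.8% (28.4 to 50.01%) and 31.2%. The Nfi motif TTGGCA was likewise in 38.8% against 42.4%, the Sox core ACAAAG in 38.8% against 40.9%, and the octamer-like ATGCAAA in 17.6% (10.2 to 27.4%) against 15.1%. In these 500 bases each share for the members had an interval that included the share for the other peaks. With the whole peak searched, TAATTA was in 64.7% of member peaks (53.6 to 74.8%) and 46.4% of the others, a share outside that interval. The part of GC content in these shares was not tested.

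**Figure D4:**
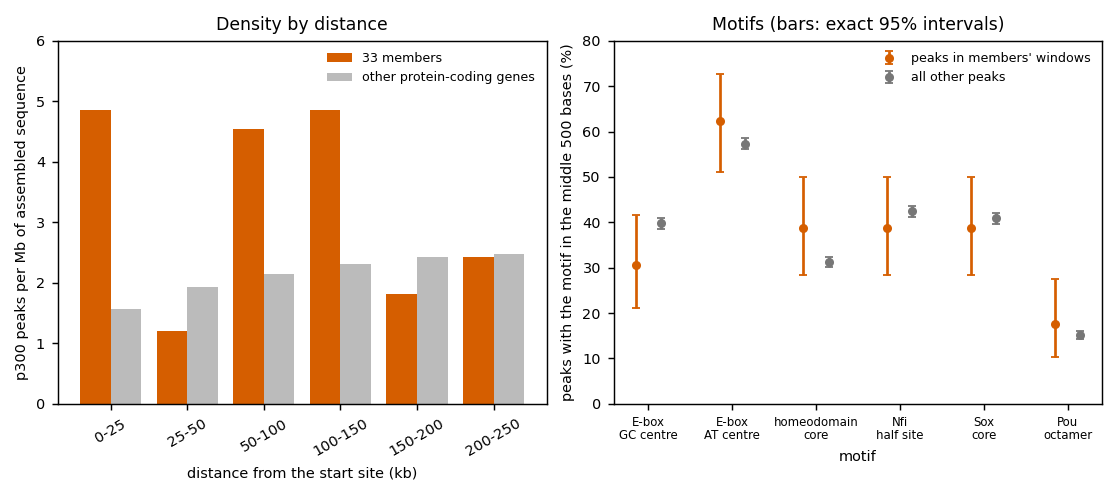
Left, p300 peaks per Mb of assembled sequence by distance from the start site in kb, for the adhesion genes (orange) and for other protein-coding genes (grey). Right, percent of peaks with each of 6 motifs in the middle 500 bases, for the 85 peaks of the adhesion genes (orange) and the other 6544 (grey), with exact 95% intervals as bars. The members' bars are highest at 0 to 25 and 100 to 150 kb, at 4.85 per Mb, and every orange motif interval spans the grey point beside it.

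A wider list of 80 other adhesion genes included some that the test called, mostly from families with no gene among the 33. It called 6 of the 80, or 7.5%, as having more peaks than expected, against 2.08% of all genes, and 0 as having fewer, against 0% of all genes, and their median was 1 peak, with 33 genes at 0. Odz4, a teneurin gene, had 17 peaks in 0.949 Mb, of which 16 were in the gene and 7 nearest to its start (adjusted p = 1.00e-06, exact binomial test). Cntn2, the contactin of early axons also called TAG-1, had 8 peaks, more than any contactin gene among the 33 members. Of these 8, only 1 was in the gene and 3 were nearest to its start. For the member Cntn5, all 6 were in the gene and 5 were nearest to its start. Sdk2 also had 8, of which 4 were nearest to its start, and Flrt1 had 9, of which 5 were. Cadm1 had 7, all nearest to its start, and Cdh15 had 10. None of the 10 peaks around Cdh15 was nearest to its start.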

How the data were processed

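The authors aligned reads with ELAND to mm9, called peaks with MACS 1.4 against input DNA, and discarded those at exons, near start sites or in doubtful mapping. The deposited list gives start and end positions of 6629 peaks from 1 library, with no signal, so depth per peak is unknown, and the input was not analysed here. Peaks were placed on NCBIM37, the same assembly as mm9, with GENCODE vM1 genes, using Python 3.11.15, numpy 2.4.6, scipy 1.17.1 and matplotlib 3.10.9. Midpoints were counted per window, and the window share of assembled bases gave the expected number under random placement. One-sided exact binomial tests were adjusted over 22367 genes. Counting intervals are exact Poisson 95% intervals, shares carry exact binomial ones, and both cover counting error only. Introns were numbered in the transcript that set the start site. The code was tested on simulated data. Alternatives changed the reach, the start site, the peaks counted and the expected number. Members and lists were chosen with earlier results of these data known. All members were named, and other adhesion genes were named when called.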

Additional observations from a re-analysis of the deposited data

How the results depend on the processing

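Across 11 alternatives, the number of members called higher stayed at 0 except where expected numbers followed local GC content, which called 1, Pcdh9, and called 1.05% of all genes. That setting also gave the joined windows a ratio of 1.61 (counting interval 1.29 to 1.99). Under the other settings the ratio ran from 1.05, with a reach of 500 kb, to 1.33, with peaks under 5 kb apart joined, and its interval included 1 for reaches of 100 and 500 kb, gene bodies alone, wide peaks alone, expected numbers outside exons and start sites, and nearest starts alone. No setting called a member, or any other gene, lower. Of 363 values for single members under alternatives, 28 moved across a ratio of 1. The like-span ratio was 1.22 with spans within 5% and 1.29 within 20%. Genomic peak density rose from 1.54 per Mb in the fifth of bins with the lowest GC content to 4.61 in the highest. With 1 ChIP library no replicate could be left out, and no paired analysis was possible because there was 1 library of each kind. Without read counts, binding below the peak threshold was not measured.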

Other observations

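The stretch of chromosome 15 from 16707856 to 23404173, which runs from Cdh9 through Cdh10 and Cdh12 to Cdh18, held 6 peaks in 6.70 Mb where 17.3 were expected by length and 10.3 by local GC content. It was chosen after the counts were seen and has no test. Cdh6, on the same chromosome, had 9 peaks within 1 Mb of its start, whereas Cdh9, Cdh12 and Cdh18 had 1 each and Cdh10 had 2. Several genes had a single peak with no other close by. The peak of Pcdh10 was 2078 kb from the next, that of Cdh20 1582 kb and that of Cdh18 1436 kb.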
